A study of Mus musculus with 6 samples.

Results

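The loci of 4 genes that encode HMG-box transcription factors, Sox13, Sox4, Tcf7 and Lef1, were examined in chromatin immunoprecipitation sequencing (ChIP-seq) peak lists from developing γδ thymocytes of the mouse. Members were all peaks of the 5 deposited lists that touched a fixed mm9 window at each gene: chromosome 1, 135260000 to 135340000 for Sox13 (80 kb), chromosome 13, 29020000 to 29070000 for Sox4 (50 kb), chromosome 11, 52050000 to 52110000 for Tcf7 (60 kb), and chromosome 3, 130790000 to 130950000 for Lef1 (160 kb). There were 50 such peaks among the 74959 of all lists: 17 at Sox13, 7 at Sox4, 14 at Tcf7 and 12 at Lef1. By list, 11 were SOX13 peaks, 36 were H3K4me3 peaks (18 in each population) and 3 were H3K27me3 peaks (2 in Sox13hi and 1 in Sox13lo).

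All libraries came from C57BL/6 mice of the genotype TCRbeta KO.Sox13 ECFP KI/+. Every group therefore lacks TCRβ and carries 1 Sox13 allele with an enhanced cyan fluorescent protein (CFP) knock-in. γδ-positive, CD24-positive thymocytes were sorted into CFPhi cells (Sox13hi) and CFPlo/- cells (Sox13lo). The groups used here are SOX13 in Sox13hi, and 2 trimethylated forms of histone H3, H3K4me3 at lysine 4 and H3K27me3 at lysine 27, in each population, with 1 library per group and so no replicate check of any difference. The labels give no age, no number of animals and no place of the knock-in within Sox13. Because the populations were separated by the reporter at Sox13, a difference at that locus is between groups chosen by the gene's own activity, and reads of the reporter allele and the intact allele cannot be told apart in a peak list.

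HMG-box proteins bind the minor groove of DNA through a shared domain and bend it. SOX13 is a SoxD family member known as an early marker of γδ T cell precursors. SOX4 is a SoxC member expressed in lymphoid progenitors. TCF1, the product of Tcf7, and LEF1 are the T cell members of the TCF/LEF family, which bind β-catenin and serve as effectors of Wnt signalling. SOX13 is known to interact with TCF1. H3K4me3 marks the starts of active and poised genes, and Polycomb complexes place H3K27me3 at genes that are kept silent.

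The sequence before a gene's start is shown for 3 of the genes, to set out what kind of DNA these promoters are and whether it holds the core letters that SOX and TCF/LEF factors read. These are RefSeq sequences of build GRCm38.p6, the 250 bases before an annotated start in the direction of transcription. The peaks are on mm9, so the stretches were not set beside peak positions. Capitals mark AACAAT or ACAAAG (searched as SOX) and CTTTGA (searched as TCF/LEF) on either strand, and lower case marks all other bases. ACAAAG and CTTTGA, which reads TCAAAG on the other strand, share the letters CAAAG. A match to either therefore does not assign a site to a family.
Sox13, chr1:133424213-133424462, minus strand: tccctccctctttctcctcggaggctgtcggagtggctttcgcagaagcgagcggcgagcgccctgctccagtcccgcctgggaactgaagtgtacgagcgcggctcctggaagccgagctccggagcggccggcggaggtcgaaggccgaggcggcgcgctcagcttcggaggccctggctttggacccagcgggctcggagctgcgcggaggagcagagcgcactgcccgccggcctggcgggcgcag
Sox4, chr13:28953700-28953949, minus strand: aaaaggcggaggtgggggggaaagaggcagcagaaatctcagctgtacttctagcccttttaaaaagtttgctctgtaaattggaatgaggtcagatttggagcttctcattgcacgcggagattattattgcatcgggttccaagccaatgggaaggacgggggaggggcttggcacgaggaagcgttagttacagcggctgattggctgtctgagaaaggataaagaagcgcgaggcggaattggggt
Lef1, outermost start, chr3:131110047-131110296, plus strand: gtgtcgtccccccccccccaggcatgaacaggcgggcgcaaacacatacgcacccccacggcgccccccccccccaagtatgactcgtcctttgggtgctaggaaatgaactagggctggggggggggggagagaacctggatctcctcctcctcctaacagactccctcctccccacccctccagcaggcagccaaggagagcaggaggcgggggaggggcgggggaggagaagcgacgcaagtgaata
Lef1, innermost start, chr3:131156044-131156293, plus strand: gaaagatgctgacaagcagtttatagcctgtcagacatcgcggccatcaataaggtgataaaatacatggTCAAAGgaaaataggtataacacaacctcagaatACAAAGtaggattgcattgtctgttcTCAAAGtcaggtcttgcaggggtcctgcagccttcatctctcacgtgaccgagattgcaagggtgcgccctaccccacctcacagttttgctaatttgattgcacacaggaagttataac

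All 4 genes were found in the promoter table, with 8 promoters of 300 bases (250 before and 50 after the start): 1 each for Sox13 and Sox4, 2 for Tcf7 and 4 for Lef1. The Sox13 promoter was GC-rich, with 73.3% G and C and 40 CpG dinucleotides, a number reached by 3.91% of the 32851 promoters in the table. The 2 Tcf7 promoters held 45 and 17 CpG, Sox4 held 12, and the 4 Lef1 promoters held 18, 21, 8 and 5 from the outermost to the innermost start, beside a median of 7 in the table. None of the 3 motifs was present in the promoters of Sox13, Sox4 and Tcf7 or at the 3 outer Lef1 starts. At the innermost Lef1 start, CTTTGA was found 2 times and ACAAAG once, on the strands shown by the capitals above. Of all promoters in the table, 10.7% held AACAAT, 18.7% held ACAAAG, 16.0% held CTTTGA and 38.0% held any of them. A match of this kind describes letters only, and none was tested for binding.

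Each locus had its highest-scoring H3K4me3 peak, called dominant here, at the same site in both populations. At Sox13, Sox4 and Lef1 the dominant peak of each population overlapped SOX13 peaks, which were mapped in Sox13hi cells only. In the Sox13hi list the highest-scoring peaks of the 4 windows ranked 54 (Sox13), 11 (Sox4), 25.5 (Tcf7, tied) and 113 (Lef1) of 20444, so all 4 were in the top 1% of the list. In the Sox13lo list they ranked 1965, 22, 25 and 209.5 of 18471. The score is the authors' own value for a peak, with no definition in the sources used here, so it places a peak within its list and is not compared between lists. Of all Sox13hi H3K4me3 peaks in the top 1%, 32.7% overlapped SOX13, against 3 of these 4. In Sox13lo, Sox4 and Tcf7 were in the top 1%, and 1 of these 2 peaks overlapped SOX13, beside 32.1% of the top 1% of that list.

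**Figure D1:**
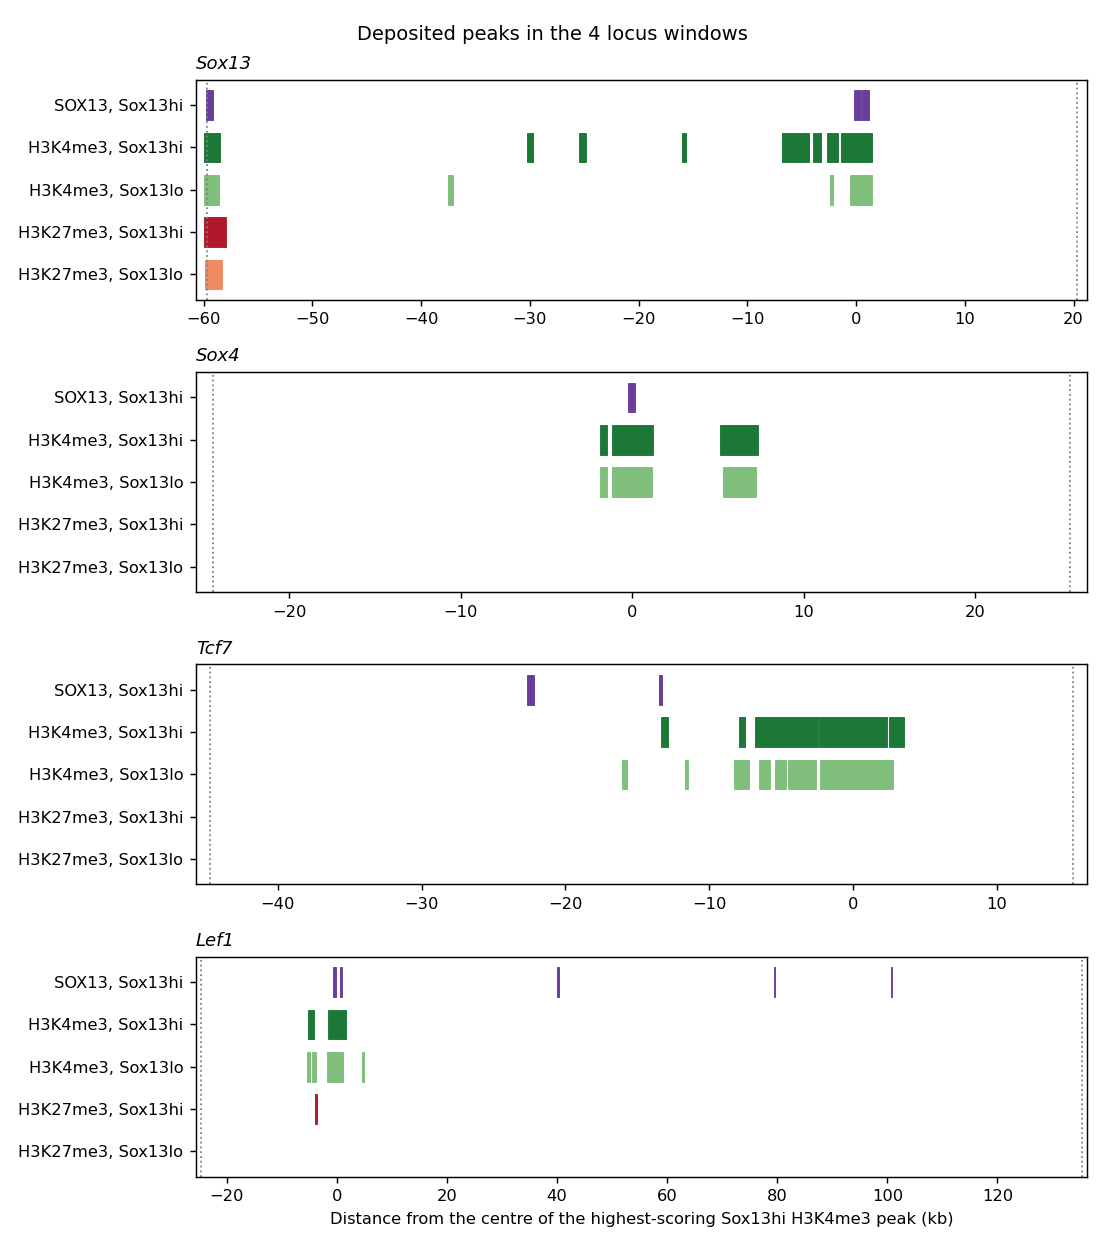
Peaks of the 5 lists (rows) in each window, drawn to scale as bars against the distance in kb from the centre of the highest-scoring Sox13hi H3K4me3 peak, with dotted lines at the window ends. H3K4me3 gathers around 0 at each locus, while H3K27me3 appears only as the 3 peaks at the left end of the Sox13 window and next to the Lef1 peak.

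The window of its own gene held 3 SOX13 peaks, and 2.36% of all 80 kb stretches held at least as many. Of these, 1 crossed the window's left edge, 57750 bp from the dominant Sox13hi H3K4me3 peak, and is described below. The 2 others lay wholly inside the window. This pair lay at 135319501 to 135320199 (700 bp, score 17.0, rank 830) and 135320251 to 135320899 (650 bp, score 18.25, rank 715.5 of 13807). Only 50 bp separated them, and 0.268% of SOX13 peaks had another within 50 bp. Merged, the pair was 1.4 kb wide, rank 63 by width of 13490 merged SOX13 sites. Both lay wholly inside the dominant H3K4me3 peak of each population, centred 125 and 850 bp to the right of the middle of the Sox13hi peak. That peak spanned 135318301 to 135321149 in Sox13hi (2850 bp, score 322.5) and 135319201 to 135321149 in Sox13lo (1950 bp, score 174.0). The right edges were identical and the left edges 900 bp apart.

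Left of this peak the H3K4me3 lists of the populations differed at Sox13. Sox13hi had 3 more peaks, at 135312901 to 135315349 (2450 bp, score 68.5), 135315751 to 135316499 (750 bp, score 21.75) and 135317051 to 135318099 (1050 bp, score 35.75). Sox13lo had 1, at 135317301 to 135317599 (300 bp, score 12.5), which lay inside the last of these. The 2450 bp peak had no Sox13lo peak within 1950 bp. Of the 6203 Sox13hi H3K4me3 peaks without an overlapping Sox13lo peak, it was the widest and the only one over 2 kb. Their median width was 350 bp. With this peak itself counted, 5 of the 6203 scored at least as high. Within 10 kb of the middle of the dominant Sox13hi peak, H3K4me3 covered 7100 bp in 4 Sox13hi peaks and 2250 bp in 2 Sox13lo peaks, a ratio of 3.16. The same ratio was 1.09 at Sox4, 1.09 at Tcf7, 0.916 at Lef1 and 1.08 over the whole lists (17697050 against 16356100 bp). Among the 4 loci the ratio was farthest from that of the lists at Sox13. The populations were sorted by the reporter at this gene, and the cause of the difference was not tested.

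**Figure D2:**
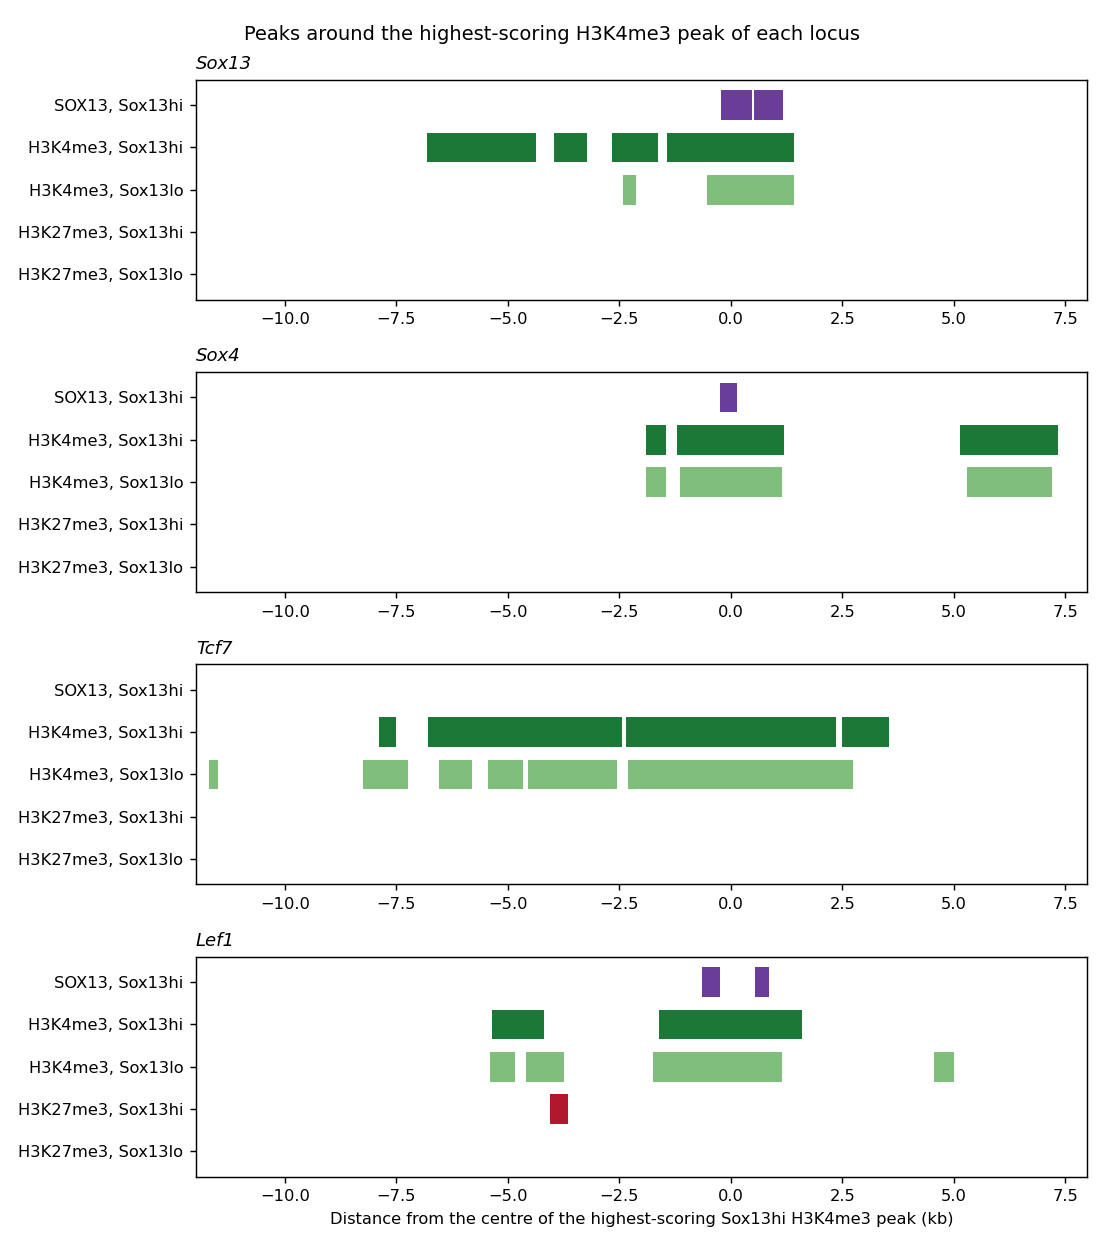
Peaks from 12 kb left to 8 kb right of the centre of the dominant Sox13hi H3K4me3 peak at each locus, with 1 row per list and the horizontal axis in kb. At Sox13 the 4 Sox13hi peaks extend about 7 kb to the left where Sox13lo has 2, at Sox4 both populations share 3 peaks, and at Tcf7 no SOX13 peak is in view.

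The rest of the Sox13 window held smaller H3K4me3 peaks that were not shared. Sox13hi had peaks at 135289501 (550 bp, score 21.25), 135294251 (600 bp, 17.0) and 135303701 (400 bp, 11.25), and Sox13lo had a peak at 135282151 (550 bp, 22.75). All 4 were in the lower 50% of their lists by score, and the distance to the nearest peak of the other population was between 6800 and 13200 bp. The 8 Sox13hi H3K4me3 peaks of the window were a number reached by 0.289% of 80 kb stretches, and the 4 Sox13lo peaks by 2.88%.

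At the left end of the Sox13 window, all 5 lists had a peak at the same site, which crossed the window's edge by up to 249 bp. H3K27me3 spanned 135259751 to 135261749 in Sox13hi (2000 bp, score 192.25, rank 81 of 14842) and 135259851 to 135261399 in Sox13lo (1550 bp, score 163.75, rank 98.5 of 7395). These were the only H3K27me3 peaks of the window. H3K4me3 spanned 135259751 to 135261249 in Sox13hi (1500 bp, score 98.5) and 135259751 to 135261149 in Sox13lo (1400 bp, score 114.75). The SOX13 peak there, 135259901 to 135260549 (650 bp, score 21.0, rank 508.5), had the highest score of the 11 SOX13 members. Of all SOX13 peaks, 1.79% overlapped all 4 histone lists, and enrichment at such sites without an antibody was not examined, since the input library was not used here. The site was 57750 bp from the dominant Sox13 peak. In RefSeq's gene order on GRCm38.p6 the neighbours of Sox13 are Etnk2, which encodes an ethanolamine kinase, and the pseudogene Gm8596, and the gene to which this site belongs was not analysed here.

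At Sox4 the populations had the same 3 H3K4me3 peaks, all matched, with edges at most 150 bp apart. The dominant peak spanned 29043251 to 29045649 in Sox13hi (2400 bp, score 420.75) and 29043301 to 29045599 in Sox13lo (2300 bp, score 487.0). A further peak lay at 29049601 to 29051799 in Sox13hi (2200 bp, score 104.25) and 29049751 to 29051649 in Sox13lo (1900 bp, score 107.75). The smallest, 29042551 to 29042999, had identical edges in the lists and scores of 9.0 and 16.5. SOX13 had 1 peak in the window, a number reached by 21.5% of 50 kb stretches. It spanned 29044201 to 29044599 (400 bp, score 15.25, rank 1098.5), centred 50 bp from the middle of the dominant H3K4me3 peak of each population. The nearest other SOX13 peak was 95750 bp away. No H3K27me3 peak was listed in the window in either population. RefSeq places long noncoding RNAs next to Sox4 (Gm46406 and Gm52067 on either side), so a peak of this window need not belong to Sox4.

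With peaks within 1 kb merged, Tcf7 carried the widest H3K4me3 domain of each list, with no SOX13 peak on it. Single peaks reached from 52092351 to 52097049 in Sox13hi (4700 bp, score 376.5, rank 6 of 20444 by width) and from 52092401 to 52097449 in Sox13lo (5050 bp, score 475.25, rank 5 of 18471). Beside it, Sox13hi had a peak of 4350 bp at 52087901 to 52092249 (score 195.5, tied rank 9.5 by width). Sox13lo had 3 peaks over that stretch, of 750, 800 and 2000 bp, with scores of 34.75, 38.75 and 89.5. Sox13hi further had a peak at 52097201 to 52098249 (1050 bp, score 27.5), which overlapped the right end of the dominant Sox13lo peak by 250 bp. A peak at 52086801 to 52087199 in Sox13hi (400 bp, score 15.25) lay inside a Sox13lo peak at 52086451 to 52087449 (1000 bp, score 40.75). With peaks of a list within 1 kb merged, the domain was 11450 bp in Sox13hi (52086801 to 52098249, 4 peaks) and 11000 bp in Sox13lo (52086451 to 52097449, 5 peaks). Each was the widest merged domain of its list, of 19182 and 17025.

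The Sox13 domain came next in Sox13hi, where its 4 peaks merged to 8.25 kb, rank 2 of 19182. In Sox13lo the domain with the dominant Sox13 peak was 1.95 kb wide, rank 1263 of 17025. The domains of Sox4 were 3.1 and 3.05 kb and those of Lef1 3.2 and 2.9 kb, Sox13hi first. These places depend on the merge distance. At 0.5 kb the Sox13 domain in Sox13hi was 4.1 kb, rank 40, at 2 kb it stayed at 8.25 kb, rank 6, and at 5 kb its rank was 156.5. The Sox13lo domain was 3.85 kb at 2 kb. Tcf7 ranked 1 at 0.5 kb, 2 and 3 at 2 kb, and 12 and 4 at 5 kb, Sox13hi first. The Lef1 domains were 3.2 kb in Sox13hi and 6.55 kb in Sox13lo at 2 kb, and 6.95 and 10.4 kb at 5 kb, so their order turned. Those of Sox4 were 9.25 and 9.1 kb at 5 kb.

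**Figure D3:**
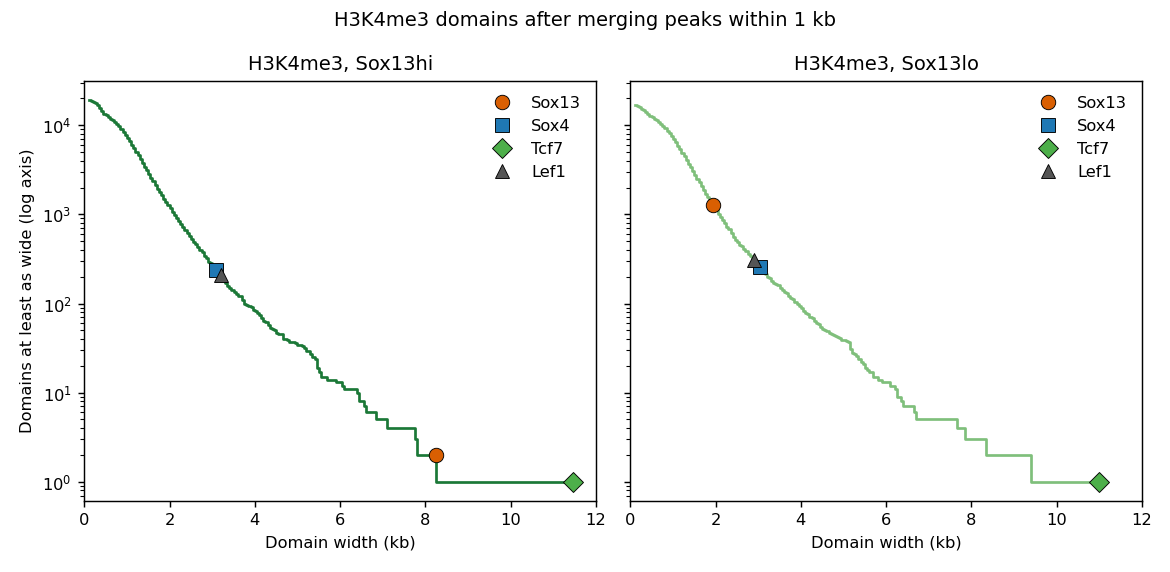
Number of H3K4me3 domains at least as wide as a given width in kb (vertical log axis), for Sox13hi (left) and Sox13lo (right), after merging peaks within 1 kb. Symbols mark the domain with the dominant peak of each locus: Tcf7 is at the far end in both, and Sox13 is at 8.25 kb in Sox13hi and 1.95 kb in Sox13lo.

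The Tcf7 window held 2 SOX13 peaks, a number reached by 5.65% of 60 kb stretches. Both lay away from the Tcf7 H3K4me3 domain merged within 1 kb. At a merge distance of 5 kb, the Tcf7 domain of each population reached the lower-scoring one. The higher-scoring, 52072001 to 52072549 (550 bp, score 17.75, rank 758), was 19800 bp from the dominant Sox13hi peak and overlapped no histone peak in any list. The other, 52081201 to 52081399 (200 bp, score 6.25, rank 10250.5), touched the end of a low-scoring Sox13hi H3K4me3 peak at 52081351 to 52081849 (500 bp, score 17.0) that had no match in Sox13lo. When 50% of the shorter peak had to be covered, this SOX13 peak was not on H3K4me3 and the number at Tcf7 became 0. In Sox13lo, 2 narrow H3K4me3 peaks without a match flanked it, at 52078651 (300 bp, score 12.75) and 52083001 (200 bp, score 8.25). No H3K27me3 peak was listed in the Tcf7 window. In RefSeq's order Tcf7 lies between Skp1, which encodes a ubiquitin ligase subunit, and the noncoding RNA Gm30217.

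At Lef1 the dominant H3K4me3 peak spanned 130813051 to 130816249 in Sox13hi (3200 bp, score 272.75) and 130812901 to 130815799 in Sox13lo (2900 bp, score 303.75). Both lists had more H3K4me3 on its left, as 1 Sox13hi peak at 130809301 to 130810449 (1150 bp, score 37.25) and as 2 Sox13lo peaks at 130809251 to 130809799 (550 bp, score 33.0) and 130810051 to 130810899 (850 bp, score 36.25). A further Sox13lo peak at 130819201 to 130819649 (450 bp, score 16.0) had no Sox13hi peak within 2950 bp. The window held 1 H3K27me3 peak, in Sox13hi alone, at 130810601 to 130810999 (400 bp, score 21.25, rank 5108 of 14842). It overlapped H3K4me3 of Sox13lo but not of Sox13hi, whose nearest H3K4me3 peak was 150 bp away. The nearest Sox13lo H3K27me3 peak was 22200 bp away. Most Sox13hi H3K27me3 peaks had no match, as 24.5% of that list overlapped a Sox13lo peak. The Sox13hi H3K27me3 list is 2.01 times as long as the Sox13lo list. With both lists limited to 7395 peaks by score, the length of the Sox13lo list, the Sox13hi peak was kept by its rank. The Sox13lo list stayed whole at that length, so a match could not appear and this setting could not test the role of list length.

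SOX13 had 5 peaks over the 160 kb of the Lef1 window, a number reached by 1.48% of stretches of that length. Those at 130814001 to 130814399 (400 bp, score 13.0, rank 1658.5) and 130815201 to 130815499 (300 bp, score 10.25, rank 3097.5) lay wholly inside the dominant H3K4me3 peak of both populations, 800 bp apart. Merged within 1 kb they were 1.5 kb wide, rank 42 of 13490 sites. Of all SOX13 peaks 4.02% had another within 1 kb, and 0.308% of Sox13hi H3K4me3 peaks held at least 2 SOX13 peaks, as the dominant peaks of Sox13 and Lef1 did. The remaining SOX13 peaks were 38350, 77750 and 99000 bp to the right of the dominant H3K4me3 peak, at 130854601 to 130854949 (350 bp, score 6.25), 130894001 to 130894199 (200 bp, score 6.75) and 130915251 to 130915449 (200 bp, score 5.25). These 3 were in the lower 50% of the SOX13 list and overlapped no histone peak. Lef1's neighbours in RefSeq's order are the noncoding RNA Gm36603 and Hadh, which encodes an enzyme of fatty acid oxidation.

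Across the 4 windows, 7 of the 11 SOX13 peaks overlapped H3K4me3 in Sox13hi and 6 overlapped it in Sox13lo, beside 14.2% and 12.8% of all SOX13 peaks. On H3K27me3 there was 1 of 11 in each population, the site at the end of the Sox13 window, beside 3.70% and 3.17%. The 4 SOX13 peaks on no histone peak, 3 at Lef1 and 1 at Tcf7, compare with 82.2% of the list. The windows were drawn around genes, and these shares describe them without a test. Of the H3K4me3 members, 5 of 18 in Sox13hi and 4 of 18 in Sox13lo overlapped a SOX13 peak, beside 9.29% and 9.33% of the lists. All SOX13 peaks come from Sox13hi cells, so SOX13 binding in Sox13lo was not measured.

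Over the 4 windows together, the share of H3K4me3 members matched between populations was close to that of the lists. By locus, with few members each, it was lowest at Sox13 in Sox13hi. In all, 12 of 18 Sox13hi members overlapped a Sox13lo peak, where the list had 69.7%, and 14 of 18 Sox13lo members overlapped a Sox13hi peak, where the list had 78.1%. In Sox13hi 3 of 8 were matched at Sox13, 3 of 3 at Sox4, 4 of 5 at Tcf7 and 2 of 2 at Lef1. In Sox13lo 3 of 4 were matched at Sox13, 3 of 3 at Sox4, 5 of 7 at Tcf7 and 3 of 4 at Lef1. The members without a match were 5 at Sox13 and 1 at Tcf7 in Sox13hi, and 1 at Sox13, 2 at Tcf7 and 1 at Lef1 in Sox13lo. Apart from the 2450 bp peak at Sox13, they were 200 to 750 bp wide. For H3K27me3, 1 of 2 Sox13hi members (list, 24.5%) and the 1 Sox13lo member (list, 49.1%) were matched. H3K27me3 lay on H3K4me3 of the same population in 1 of 2 Sox13hi members (list, 22.1%) and in the 1 Sox13lo member (list, 38.6%). H3K4me3 peaks over 2 kb made up more of the members than of the lists: 7 of 18 in Sox13hi and 3 of 18 in Sox13lo, beside 3.32% and 3.50%. The median width was 1100 and 825 bp, against 800 bp in each list.

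By score, the H3K4me3 members ranged widely below the dominant peak of each locus. In Sox13hi the second Tcf7 peak, of 4350 bp, ranked 537 of 20444, and 5 of the 18 members were in the top 10% of the list. The Sox13hi members had a median place of 49.2% (the share of the list that scores at least as high) and the Sox13lo members 60.2%, with 8 and 11 of 18 in the lower 50% of their lists. The 11 SOX13 members had a median place of 12.3%, and 5 of them, 3 at Sox13 and 1 each at Sox4 and Tcf7, were in the top 10%. None was in the top 1% of the SOX13 list.

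**Figure D4:**
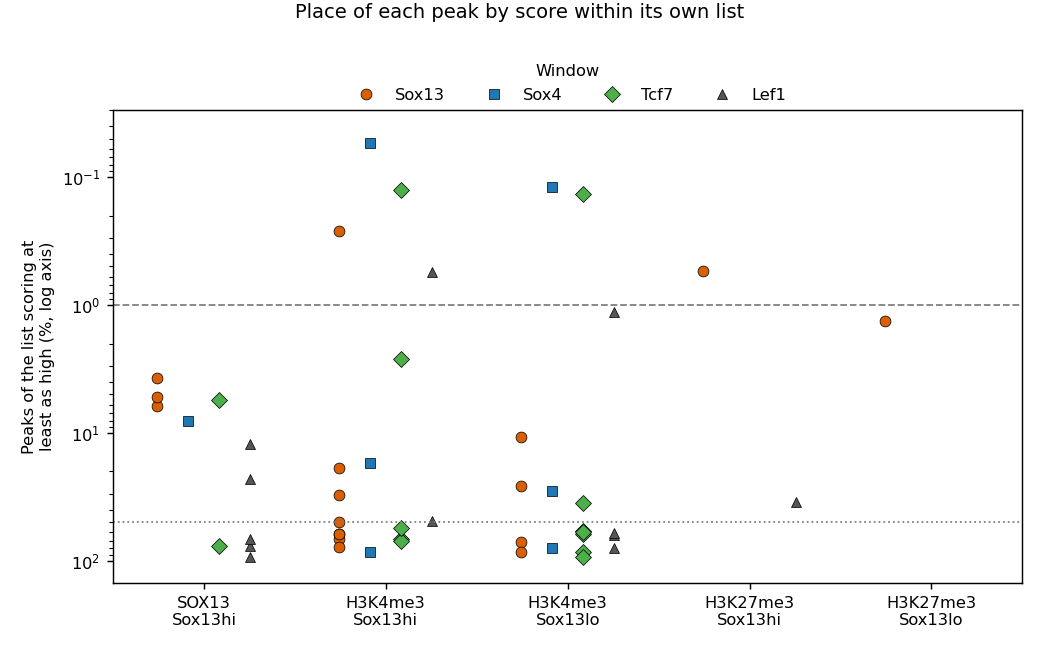
Share of a peak's own list that scores at least as high, in percent on an inverted log axis, for all 50 peaks by list (columns) and window (symbols), with a dashed line at 1% and a dotted line at 50%. The dominant H3K4me3 peaks of the 4 loci lie above the dashed line in Sox13hi, and in Sox13lo those of Sox4 and Tcf7 do.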

How the data were processed

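The data are 5 peak lists of 1 library each, mapped to mm9 per the submitters' processing notes. Per the labels' protocols, 1000000 cells for SOX13 and 250000 for each histone mark were fixed in 1% formaldehyde, and libraries were amplified for 17 cycles and cut out at 300 to 500 bp. The lists give each peak a position and a score deposited by the authors. How the score was computed, and with which aligner, peak caller, threshold and control, is not given in the sources used here. Sequencing depth is unknown. Depth or threshold changes how many peaks are called and how far they extend.

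Printed starts count from 1, and printed ends are those of the lists. Ends lie 1 bp short of a 50 bp grid, so widths include the last base and distances count the bases between. Ranks within a list give 1 to the highest value and tied values their mean rank. Overlap means at least 1 bp. Stretches were tiled along each chromosome between its first and last peak. With 1 library per group no p-value was computed. Every SOX13 and H3K27me3 member and at least the 3 highest-scoring H3K4me3 members per window and population are named. Members and lists were chosen with earlier results of these data known. The merge distances of 0.5, 2 and 5 kb were added after seeing the data. No genome or annotation of mm9 was used here, so peaks were not placed relative to gene starts, and a planned alignment of the proteins was not run.

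Python 3.11.15, NumPy 2.4.6, pandas 2.3.3, SciPy 1.17.1 and matplotlib 3.10.9 were used. The overlap code was tested on 3000 simulated intervals, and its counts equalled those of bedtools 2.31.1 for 3 pairs of lists.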

Additional observations from a re-analysis of the deposited data

How the results depend on the processing

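Over the 4 windows together, 54 of 65 alternative values stayed within 1.5 times the reported count. Some of these could not move. SOX13 has a single list and the Sox13lo lists are the shorter ones, so equal length left their peak counts untouched. Keeping the top 50% of each list by score left 7 of 11 SOX13 peaks, 10 of 18 Sox13hi and 7 of 18 Sox13lo H3K4me3 peaks, and 7 matched H3K4me3 peaks in each population in place of 12 and 14. Merging peaks within 1 kb left 11 H3K4me3 sites in Sox13hi. H3K27me3 counts of 2 in Sox13hi and 1 in Sox13lo became 1 and 0 with only peaks wholly inside a window and 5 and 3 with windows widened by 20 kb. An H3K4me3 peak within 1 kb was found for 2 Sox13hi H3K27me3 peaks, against 1 by overlap. At equal list length none of these totals changed, but the ranks of the members fixed the peak counts in advance. They also fixed the numbers of Sox13hi members matched in Sox13lo, since the Sox13lo lists stayed whole. The lowest-scoring Sox13hi H3K4me3 member ranked 17413.5, within the 18471 kept. The Sox13hi H3K27me3 members ranked 81 and 5108, within the 7395 kept. This setting could not test depth or threshold. No paired analysis was possible because there was a single library of each kind, which also left no replicate to omit.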
